A study of Caenorhabditis elegans with 7 samples.

Results

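The shortest annotated 3′ ends of Caenorhabditis elegans were examined: 12496 distinct autosomal or mitochondrial entries of 60 bases or less, of 38377 distinct entries in all. An entry is an annotated stretch of sequence that the authors counted as a 3′ UTR, the part of an mRNA between the stop codon and the poly(A) tail. The members were chosen by length and chromosome alone, with 1 entry kept per distinct chromosome, start, end and strand. They were compared with 15222 autosomal entries of more than 100 and under 600 bases, called middle entries below. Of the 12496 short entries, 10 lie on the mitochondrial genome, so the results were also computed without them.

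The study used SLAM-ITseq, in which a tissue that expresses uracil phosphoribosyltransferase builds fed 4-thiouracil into its new RNA. Whole L4 larvae were compared in 7 libraries: 4 of the control strain BN1158, which has no FLP recombinase, and 3 of strain BN1190, with FLP driven in the hypodermis by the dpy-7 promoter (dpy-7p::FLP). Both strains were grown for 28 h at 20°C and then received 4-thiouracil for 17 h, so the control libraries carry the agent too. The RNA came from whole larvae, pooled from 3 plates of about 350 larvae per replicate, and libraries were made with a 3′ mRNA kit that reads the ends of polyadenylated transcripts.

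After alkylation, a thiouracil is read as C where the genome has T (T>C). A read with at least 1 such mismatch is a T>C read, and the T>C read share is the percent of reads that are T>C reads. The conversion rate is the percent of covered T positions read as C. 3′ UTRs hold the binding sites through which microRNAs and RNA-binding proteins act on stability and translation. A short entry offers few T positions inside it, whereas a read that overhangs it can carry a mismatch elsewhere.

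The libraries held 12593898 to 80998308 mapped reads, of which 39.9% to 75.9% fell in entries counted without overlap. Control replicate 2 stood apart: its T>C read share was the highest of the 7 in short and in middle entries, and it had the lowest share of reads in entries. The main comparisons between strains are therefore given with and without it. It was singled out partly by its T>C read share, so p-values for labelling without it add no support. The file headers of 5 libraries name the same flow cell. Those of control replicate 1 and hypodermal replicate 1 name none, and whether these were sequenced together is not stated. Values are given for the 5 and for the other 2 libraries. All 24 markers of 7 tissues had reads. The summed level of the body wall muscle markers ranged from 2035 to 9565 CPM (reads scaled to mapped reads) in controls and from 7308 to 8665 CPM in hypodermal libraries. That of the hypodermis markers ranged from 406 to 649 CPM and from 548 to 712 CPM. In bulk samples, fewer cells of a type and less RNA per cell cannot be told apart. The part of other tissues in the results below was not tested.

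Most short entries were not 3′ UTRs of mRNAs. Of the 12496 entries, 7662 (61.3%) were piRNA genes, each 21 bases long and each covering the whole gene. piRNAs are germline small RNAs that guide Argonaute proteins of the PIWI family, and in C. elegans most of their genes lie in clusters on chromosome IV, which held 7419 of the 7662. A further 3998 entries (32.0%) belonged to 3566 autosomal protein-coding genes. The others were 302 pseudogene, 301 ncRNA, 172 miRNA, 10 mitochondrial and 51 further entries. The label of 3′ UTRs thus describes at most the protein-coding and mitochondrial entries. Of the 3998 protein-coding entries, 1381 had the same ends as a 3′ UTR of their transcript in the WBcel235 annotation. For 782 the transcript had several entries, so a short entry need not be a whole 3′ UTR.

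The noncoding entries came almost wholly from the minus strand. Of 8488 noncoding short entries, 8476 were on the minus strand and 12 on the plus strand, and those 12 were pseudogenes. Protein-coding entries were spread over both strands, 2043 plus and 1955 minus. Off chromosome X, the WBcel235 annotation lists 7662 piRNA genes on the minus strand, each with an entry here, and 7539 on the plus strand, none of which had one. The same held for miRNA genes, with entries for 92 of 92 on the minus strand and 0 of 95 on the plus strand. The piRNA and miRNA genes of the plus strand were therefore not analysed here.

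**Figure D1:**
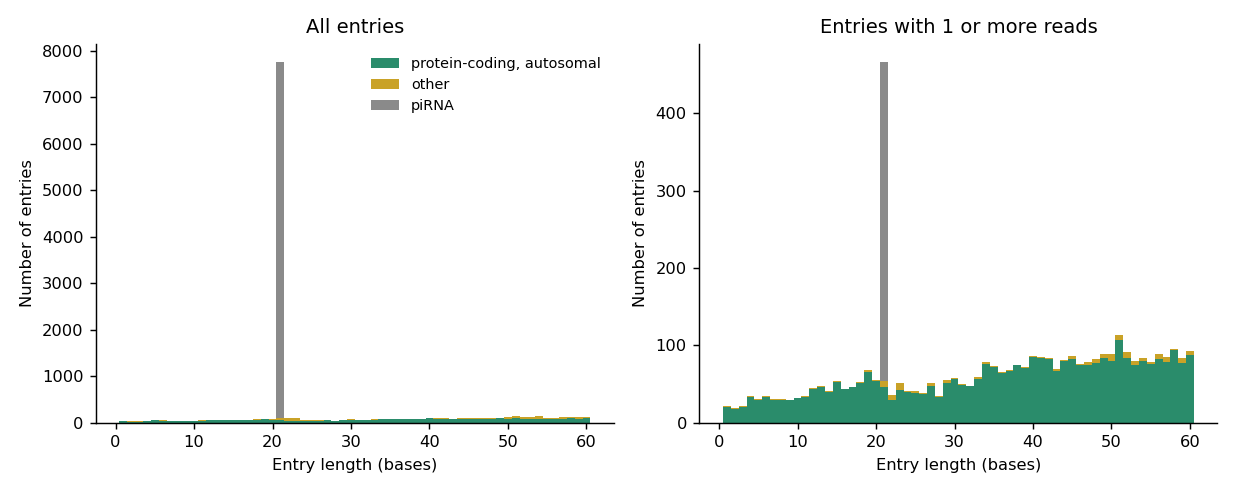
Number of entries at each length in bases, for all 12496 short entries (left) and for the 4036 with at least 1 read in any library (right), stacked by gene kind; the vertical scales differ. The peak at 21 bases is made of the 7662 piRNA genes, of which 412 had reads.

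Reads fell mainly on the protein-coding entries. A total of 4036 short entries had a read in any library and 8460 had none, among them 7250 of the 7662 piRNA entries. An average of 20 or more reads per library was reached by 2604 entries, of which 2530 were protein-coding, 36 piRNA, 19 pseudogene and 10 mitochondrial. Among protein-coding entries the share that reached this level was 35.4% at 1 to 10 bases, 60.6% at 21 to 30 bases and 74.3% at 51 to 60 bases.

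The few small RNA entries with 20 or more reads on average mostly overlapped exons of coding genes on the same strand. Such an overlap was present in 32 of these 36 piRNA entries, in 91 of the 412 piRNA entries with any read (22.1%) and in 165 of the 7250 piRNA entries without reads (2.28%). Both miRNA entries at this level lie in the 3′ UTR of rps-20, a gene of the small ribosomal subunit, and belong to mir-354 (cel-mir-354). The first, at chromosome I, 14468392 to 14468412 on the minus strand (WBcel235), had 2684, 579, 2646 and 2221 CPM in control replicates 1 to 4 and 3088, 2031 and 1585 CPM in hypodermal replicates 1 to 3. The rps-20 entry around it (14468332 to 14468478) had 4151, 1006, 4496 and 3610 CPM in the controls and 4755, 3278 and 2605 CPM in the hypodermal libraries. The order of the libraries was the same for both entries except for control replicates 1 and 3. Reads of a miRNA entry and of its host mRNA cannot be told apart in these counts.

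Ribosomal protein genes, listed here by gene symbol, dominated the reads. Ribosomal protein genes under other names are not counted among them. Cytosolic ribosomal proteins, the proteins of the translating ribosome, had a short entry in 52 of the 82 listed genes with an entry. Among autosomal protein-coding genes with an entry it was 3566 of 12519 (28.5%). The 82 include any genes on chromosome X, which could have no short entry by the rule, and the 12519 do not. The shares are thus on unlike sets. Counting overlapping entries once, the listed ribosomal protein genes held 51.1%, 62.1%, 52.9% and 57.0% of the reads in short entries in the controls and 51.8%, 55.9% and 56.8% in the hypodermal libraries. The 20 most-read short entries held 32.2% to 40.3% of the reads, and 17 of these 20 were on this list. The 3 not listed were Y37E3.8, mir-354 and the mitochondrial COX1 (cytochrome c oxidase subunit 1).

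The most-read entry was that of rps-3, a protein at the mRNA entry channel of the small subunit, with 41 bases on chromosome III (6207931 to 6207971, plus strand). It had 4245, 4416, 5295 and 4255 CPM in the controls and 4433, 4629 and 4238 CPM in the hypodermal libraries, and the groups overlapped. Its T>C read share was 1.75%, 2.66%, 1.81% and 1.74% in the controls and 2.15%, 2.46% and 2.52% in the hypodermal libraries. The 3 hypodermal values lay above 3 of the 4 controls and below control replicate 2. The labelling difference was 0.28 ± 0.17 (SE) on the log2 odds scale (adjusted p = 1, edgeR's quasi-likelihood test).

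The next most-read entries were also ribosomal. The mean levels over 7 libraries were 3379 CPM for rps-25 and 3018 CPM for rpl-17, of the small and the large subunit, and all 20 lay between 1878 and 4501 CPM. Their T>C read shares differed: rpl-17 ranged from 1.31% to 1.88% over the 7 libraries and rps-25 from 3.02% to 7.67%. Of the 20 entries, 18 had a log2 odds ratio above 0 for labelling and the largest was 0.50 ± 0.20 (SE) for rps-14. Control replicate 2 had the highest T>C share of the 4 controls in 17 of the 20.

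**Figure D2:**
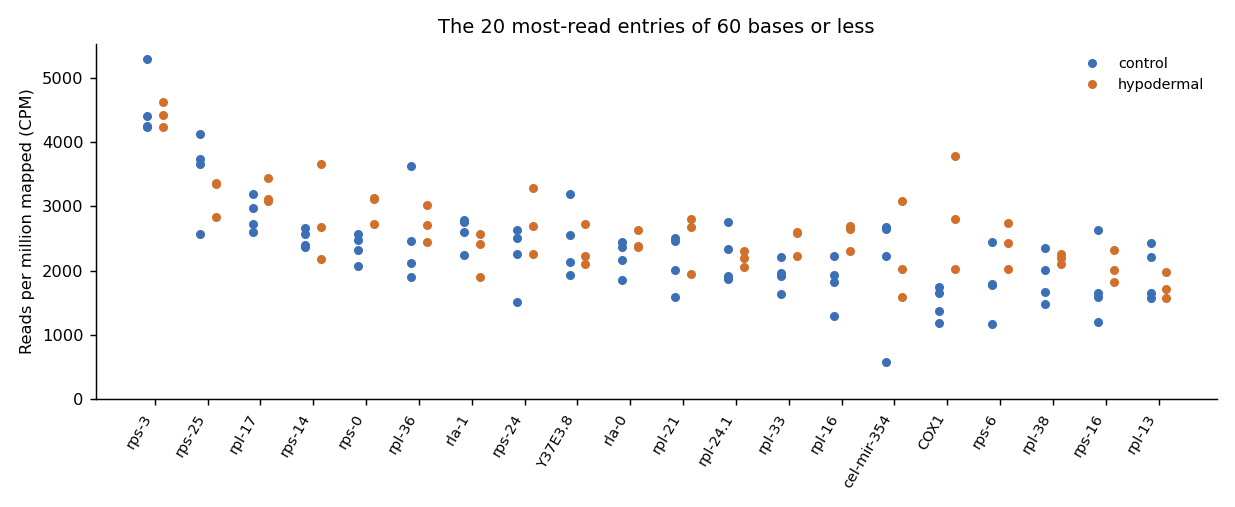
CPM of the 20 most-read short entries in each library, with control libraries on the left and hypodermal libraries on the right of each gene. The groups overlap except in COX1, rpl-33, rpl-16 and rps-0, and control replicate 2 is the low point at 579 CPM for mir-354.

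Other gene families differed widely in how often they had a short entry. Family totals count only genes with an entry of any length, on any chromosome. Genes on chromosome X count in the totals but could have no short entry by the rule. All 26 major sperm protein genes with an entry, which encode the cytoskeletal protein of crawling nematode sperm, had a short one. C-type lectins had one in 66 of 108 genes and cuticle collagens in 57 of 139. Histones had one in 3 of 42 genes and mitochondrial ribosomal proteins in 4 of 68. These lists were chosen with results of these data known and the shares are descriptions.

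Just inside the length limit, the most-read entries were rpl-33 at 59 bases (2166 CPM, mean of 7 libraries) and msra-1 at 60 bases (458 CPM). Just outside it were far-2 at 61 bases (3093 CPM) and rps-1 at 62 bases (2419 CPM). At 59 and 60 bases, 38 of 122 and 30 of 123 entries had no read, and at 61 and 62 bases 38 of 131 and 36 of 111.

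A read covered fewer T positions in short entries. Reads covered 13.2, 14.1, 12.7 and 13 Ts in the controls and 14, 13.6 and 13.8 Ts in the hypodermal libraries. In middle entries they covered 25.3, 20.5, 23.0 and 23.9 Ts in the controls and 25.8, 23.3 and 23.2 Ts in the hypodermal libraries. The classes did not overlap in any library. The ratio of short to middle was 0.573 (log2 -0.80 ± 0.13 SD, n = 7, exact sign-flip permutation test, two-sided, p = 0.0156, the smallest that 7 libraries allow). The classes were set by length, which limits the Ts inside a short entry. Their direction was thus largely fixed by that choice, and the p-value adds no support to it. A read covered 69.3% to 76.9% of the Ts of a short entry and 24.9% to 28.4% of those of a middle entry. T made up 40.8% of bases in short protein-coding entries and 39.4% in middle ones.

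The T>C read share was nearly the same in both classes. It was 2.75%, 4.73%, 2.89% and 2.65% of reads in short entries of the controls and 3.49%, 3.65% and 3.86% in the hypodermal libraries. Middle entries had 2.72%, 4.62%, 2.86% and 2.67% in the controls and 3.49%, 3.68% and 3.85% in the hypodermal libraries. The 95% Wilson intervals of these pooled shares were at most ±0.0265 percentage points wide, for counting error only. The difference of short minus middle was 0.0188 ± 0.047 points (SD, n = 7), above 0 in 4 of 7 libraries (exact sign-flip permutation test, two-sided, p = 0.406).

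This near equality rested on the 10 mitochondrial entries. Without them the share was lower in short entries, by 0.155 points (-0.155; exact sign-flip permutation test, p = 0.0156). Among autosomal protein-coding entries the difference was -0.171 points (p = 0.0156, same exact test). With entries that overlap no other entry it was 0.222 points (p = 0.0156, same exact test), so the direction depended on which entries were kept. All 10 mitochondrial entries overlap no other entry, so that setting still holds them and is not a separate case.

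**Figure D3:**
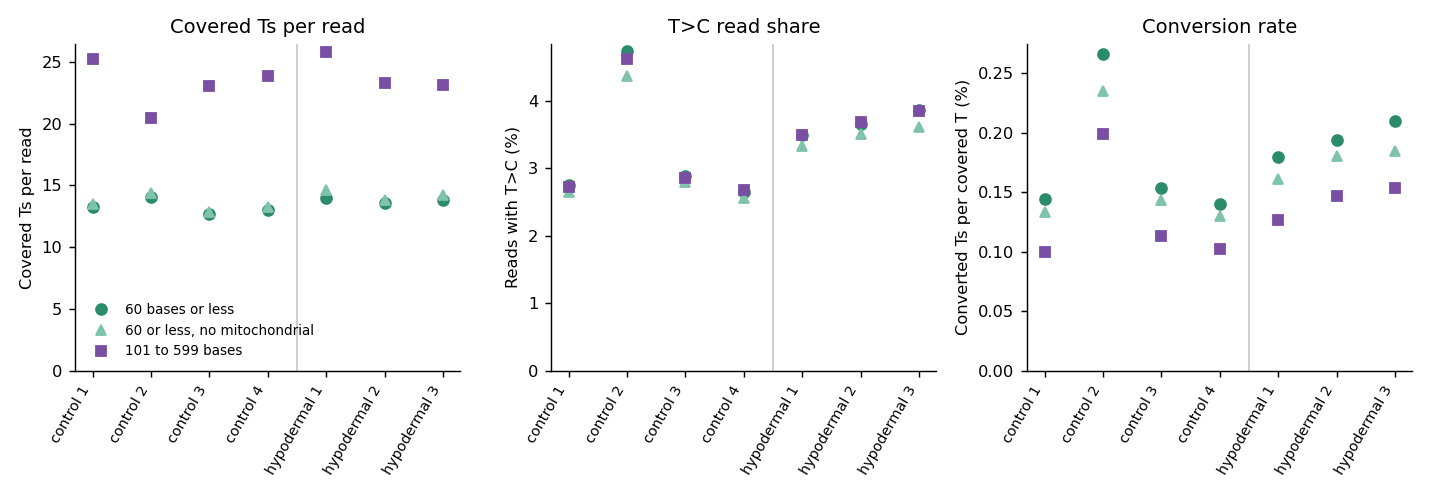
Covered Ts per read, T>C read share and conversion rate in each library for short entries (circles), short entries without the 10 mitochondrial ones (triangles) and middle entries (squares). Short entries lie between 12.7 and 14.1 covered Ts per read, below all middle values, at a T>C share close to that of the middle entries and at a higher conversion rate in all 7 libraries.

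The conversion rate pooled over reads was higher in short entries. It was 0.144%, 0.266%, 0.153% and 0.140% of covered Ts in the controls and 0.179%, 0.194% and 0.209% in the hypodermal libraries. Middle entries had 0.0993%, 0.199%, 0.113% and 0.102% in the controls and 0.126%, 0.147% and 0.153% in the hypodermal libraries. The short rate was above the middle rate in 7 of 7 libraries. The ratio was 1.37-fold (log2 0.46 ± 0.047 SD, n = 7, exact sign-flip permutation test, two-sided, p = 0.0156). The log2 ratio was 0.32 without the mitochondrial entries and 0.33 in protein-coding entries alone (both p = 0.0156, same exact test). In protein-coding entries without the listed ribosomal protein genes, the mean rates over 7 libraries were closer, 0.144% in short and 0.133% in middle entries. There control replicate 2 went the other way, with 0.187% in short and 0.198% in middle entries.

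For the median entry the direction depended on the depth required. The median short entry with 1000 or more covered Ts had a conversion rate lower by 0.0202 percentage points (-0.0202; exact sign-flip permutation test, p = 0.0156) than the median middle entry. With 10000 or more covered Ts it was higher by 0.0172 points (p = 0.0312, same exact test). Within the 5 libraries with a named flow cell the pooled log2 ratio was 0.43 (exact p = 0.0625, the smallest that 5 libraries allow) and within the other 2 it was 0.52.

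The number of converted Ts inside the entry per T>C read differed between length classes. In protein-coding entries of 11 to 20 bases a read covered 5.97 ± 0.20 Ts (SD, n = 7) and there were 0.283 ± 0.032 converted Ts per T>C read. At 31 to 40 bases these were 13.2 ± 0.58 Ts and 0.689 ± 0.034, and at 51 to 60 bases 17.3 ± 0.74 Ts and 0.834 ± 0.025. Middle protein-coding entries had 0.922 ± 0.020. In entries under 31 bases most T>C reads therefore had no converted T inside the entry. The conversion rate was 0.120% ± 0.012 at 11 to 20 bases, 0.193% ± 0.045 at 41 to 50 bases and 0.139% ± 0.023 at 51 to 60 bases, so it showed no steady trend with length above 10 bases.

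**Figure D4:**
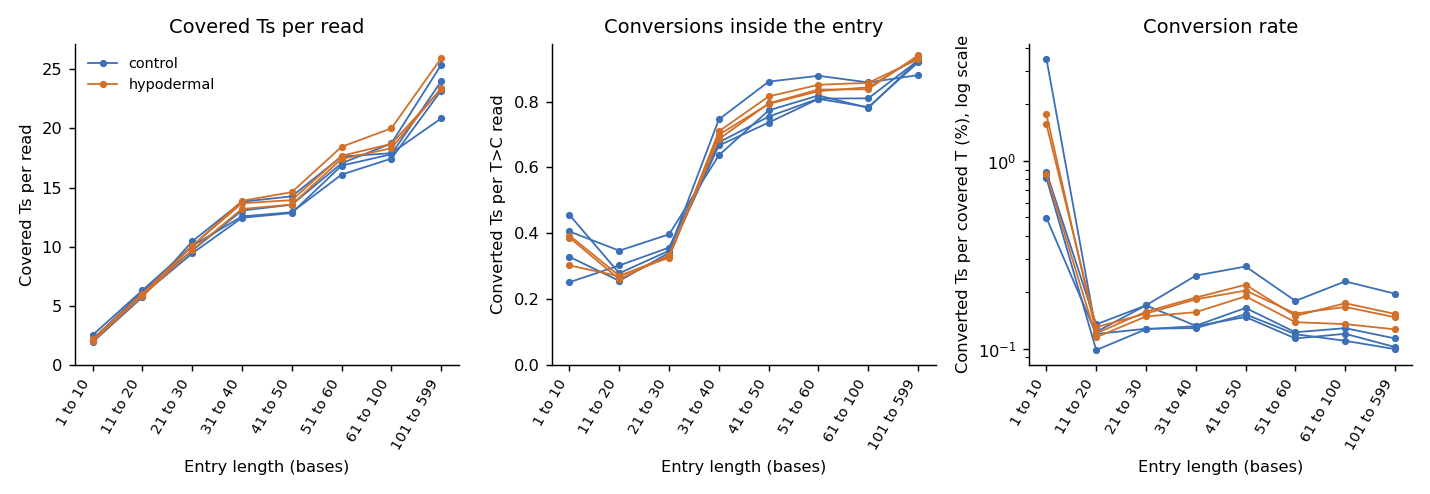
Covered Ts per read, converted Ts per T>C read and conversion rate (log axis) of autosomal protein-coding entries by entry length, 1 line per library. Covered Ts rise from 2.11 at 1 to 10 bases to 23.7 in middle entries (means of 7 libraries), and the conversion rate is highest at 1 to 10 bases.

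Among protein-coding entries of 1 to 10 bases, most T>C reads came from rpl-3, a core protein of the large ribosomal subunit. These 395 entries had a T>C read share of 7.51% ± 3.55 and a conversion rate of 1.41% ± 1.03 (SD, n = 7). A pair of rpl-3 entries on chromosome III, one of 9 bases (3869495 to 3869503, plus strand) and one of 2 bases (3869469 to 3869470), together held 39.3% to 74.0% of their reads and 53.2% to 93.2% of their T>C reads. The T>C share of the 9-base entry was 8.47%, 20.9%, 12.1% and 10.7% in the controls and 10.4%, 13.4% and 14.6% in the hypodermal libraries. The other protein-coding entries of this length, pooled, had shares of 2.34% to 3.82%. The strains overlapped in the 9-base rpl-3 entry, with a labelling difference of 0.04 ± 0.31 (SE, log2 odds; adjusted p = 1, edgeR).

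Mitochondrial entries made up most of the short entries with a conversion rate of 1% or more. Animal mitochondrial mRNAs are cut from long polycistronic transcripts and have few or no untranslated bases, and the 10 entries were 1 to 9 bases long with 1 to 4 Ts each. Their pooled T>C read share was 6.68%, 19.2%, 8.29% and 6.75% in the controls and 6.71%, 9.58% and 10.7% in the hypodermal libraries. Of 1491 short entries with 10000 or more covered Ts over all libraries, 10 had a conversion rate of 1% or more, and 7 of these were mitochondrial. Among middle entries it was 3 of 7768.

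COX1, which encodes a catalytic subunit of cytochrome c oxidase, showed the pattern at depth. Its T>C share was 6.39%, 26.8%, 10.4% and 8.54% in the controls and 7.0%, 12.8% and 14.5% in the hypodermal libraries, and the groups overlapped. Control replicate 2 was the highest library in COX1 and had the highest share of the controls in all 8 mitochondrial entries read in every control. The pooled conversion rates over libraries were 9.61% in ND3 (3 bases), 9.33% in CYTB (8 bases), 8.51% in COX1 (9 bases) and 4.73% in ATP6 (5 bases). The labelling difference between strains was -0.03 ± 0.22 (SE, log2 odds) for COX1 and 0.07 ± 0.23 for COX3, both with adjusted p = 1 in edgeR's test.

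**Figure D5:**
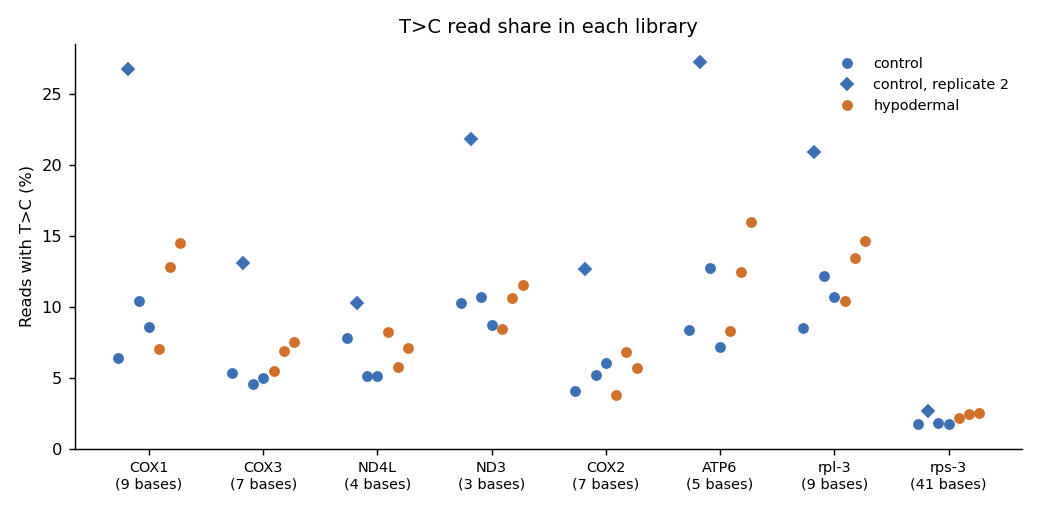
T>C read share in each library for the 6 mitochondrial entries with a mean of 100 CPM or more, for the 9-base rpl-3 entry and, for scale, for rps-3. Control replicate 2 (diamonds) is the highest point in each of the 8 entries, at 26.8% in COX1 and 2.66% in rps-3.

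The share of reads in mitochondrial entries was not tested as a class, and 0 of the 10 entries passed for total reads. They held 0.522%, 0.485%, 0.292% and 0.417% of mapped reads in the controls and 1.22%, 0.529% and 0.741% in the hypodermal libraries. COX1 had 1744, 1646, 1187 and 1372 CPM in the controls and 3788, 2019 and 2808 CPM in the hypodermal libraries, with no overlap. COX3, the third subunit of the same complex, had 1678, 873, 472 and 1201 CPM against 4391, 1632 and 2230 CPM, and these overlapped. After TMM scaling the log2 differences were 0.52 ± 0.34 (SE) for COX1 and 1.02 ± 0.38 for COX3, and neither passed (adjusted p = 1, edgeR).

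The strains were then compared over all short entries, to ask whether the hypodermal construct added label. The 4 controls had a T>C read share of 3.25% ± 0.99 (SD) and the 3 hypodermal libraries one of 3.67% ± 0.19 (SD). Their gap of 0.414 points did not pass (exact permutation test over 35 splits, one-sided, p = 0.314). Without control replicate 2 all 3 hypodermal values lay above the 3 controls, with a difference of 0.906 points (exact p = 0.05, the smallest that design allows). That library was singled out partly by its high T>C read share, the value compared here. The separation without it was thus largely fixed by that choice, and its p-value adds no support. Within libraries with a named flow cell the difference was 0.336 points (exact p = 0.4) and between the other 2 libraries it was 0.738 points, with 1 library per group.

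The conversion rate of short entries was 0.176% ± 0.061 in the controls and 0.194% ± 0.015 in the hypodermal libraries (exact permutation test, one-sided, p = 0.371). Without control replicate 2 the difference rose from 0.0184 to 0.0485 points (exact p = 0.05). The same limit holds for this p-value. Within the named flow cell it was 0.0153 points (exact p = 0.5), and between the other 2 libraries 0.0352 points. Relative to the middle entries of the same library, no strain difference was detectable in short entries: the log2 odds of short against middle was 0.014 ± 0.020 in controls and -0.0024 ± 0.011 in hypodermal libraries (exact permutation test, two-sided, p = 0.286). Without control replicate 2 the difference was -0.00898 (exact p = 0.5).

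The share of mapped reads in short entries, with overlaps counted once, was 14.8%, 13%, 12.2% and 13% in the controls. It was 17.7%, 15.8% and 13.9% in the hypodermal libraries, where the lowest value lay among the controls. The difference was 2.54 percentage points (exact permutation test, two-sided, p = 0.0857). It was 2.09 points within the named flow cell (exact p = 0.1) and 2.92 points between the other 2 libraries. Without ribosomal protein genes it was 1.29 points (exact p = 0.2), without control replicate 2 it was 2.45 points (exact p = 0.2) and without hypodermal replicate 1 it was 1.58 points (exact p = 0.267). With overlaps counted in each entry, short entries held 19.2% ± 1.71 and 22.8% ± 2.58 of mapped reads, and middle entries held 41.9% ± 12.9 and 49.9% ± 7.05.

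Entry by entry, no short entry passed for labelling. Of 13299 entries tested, 0 were called in either direction at an adjusted p under 0.05 (0%) by edgeR's quasi-likelihood test, and 0 of 1743 short entries. At an unadjusted p under 0.05, 41 short entries were higher (2.35%) against 2.9% of all entries, and 8 were lower (0.459%) against 0.451% of all. The median log2 odds ratio was 0.45 over the short entries tested and 0.52 over all entries. Short entries lay above 0 in 66.0% of cases and all entries in 70.6%. Limma on log2 odds also called 0, with 43 short entries higher and 34 lower at an unadjusted p under 0.05. After each library was centred on its median entry, 15 were higher and 38 lower, and the median of short entries was -0.10.

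Without control replicate 2, 12 short entries passed as more labelled, of 1719 tested (0.698%), against 0.243% of all entries. That library was singled out partly by its high T>C read share, so these calls add no support for a strain difference. The 12 fell at 9 loci, of which 7 were on the list of cytosolic ribosomal proteins (rpl-7A, rps-0, rps-6, rps-25, rps-14, rps-3 and rpl-10). The 2 not listed were W01D2.1 and ncbp-2, a subunit of the nuclear cap-binding complex. In the fit with all 7 libraries, 89 of the 1743 short entries tested were on that list. Listed entries held 51.1% to 62.1% of the reads in short entries, with overlaps counted once. The part of read depth in this count was not tested. In the comparison with all 7 libraries none of the 9 passed.

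Of these 9 loci, W01D2.1 had an entry in the authors' deposited table, of 44 bases on chromosome II (14816097 to 14816140). The W01D2.1 entry described here is another that overlaps it, of 41 bases (14816097 to 14816137, plus strand). Its T>C share was 1.43%, 1.81%, 1.17% and 1.47% in the controls and 2.42%, 2.60% and 2.15% in the hypodermal libraries. The groups did not overlap, control replicate 2 included. The log2 odds ratio was 0.73 ± 0.22 (SE, adjusted p = 1, edgeR), and 0.83 without control replicate 2 (adjusted p = 0.00107).

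rpl-7A, of the large subunit, had the smallest p of all short entries, from 1 library. Its T>C share was 2.09%, 1.58%, 1.52% and 1.51% in the controls and 10.6%, 1.85% and 1.56% in the hypodermal libraries, so hypodermal replicate 1 alone was high. In that library its level was also the lowest, 316 CPM against 1428 and 1972 CPM in the other hypodermal libraries. The log2 odds ratio of 0.90 ± 0.26 (SE) fell to 0.036 without that library. ncbp-2 had T>C reads in 1 of 4 controls (0%, 1.32%, 0% and 0%) and in all 3 hypodermal libraries (3.69%, 1.00% and 2.14%), where hypodermal replicate 2 lay under control replicate 2.

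The remaining short entries with the smallest p had few T>C reads. spon-1, which encodes the extracellular protein F-spondin, had 0 T>C reads of 487, 71, 102 and 226 reads in the controls, which allows shares of up to 0.616%, 4.23%, 2.94% and 1.33%. In the hypodermal libraries it had 1.46%, 43.5% and 6.72%, the highest from 46 reads. C32E8.4 had 0.0581%, 0%, 0% and 0% in the controls and 1.79%, 8.11% and 0% in the hypodermal libraries, and hypodermal replicate 3 was not above the controls.

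The authors' deposited table has 198 rows, of which 17 are short entries. In the authors' deposited table the adjusted p of these 17 ran from 0.0209 to 0.0993, and 2 were under 0.05, exos-8 (exosome complex) and rnh-1.0 (RNase H). For exos-8 the authors' deposited table gives mean conversion rates of 0.00254% for the control strain and 0.120% for the hypodermal strain, with 47.1 as their ratio. The T>C shares of exos-8 here were 0.399%, 3.08%, 0.331% and 0.135% in the controls and 2.68%, 3.32% and 2.66% in the hypodermal libraries, and control replicate 2 lay within the hypodermal range. All 17 had a log2 odds ratio above 0 here, from 0.32 for rpl-7 to 6.49 for F57B9.8, and none passed. That list was picked from these same libraries, so its direction is not independent evidence. By the limit of 17 T>C named with the authors' deposited table, 17 of 1165 short entries (1.46%) and 118 of 6674 middle entries (1.77%) with as many converted Ts were listed.

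F57B9.8 held 0 T>C reads of 383, 49, 18 and 215 reads in the controls, which allows up to 0.783%, 6.12%, 16.7% and 1.40%. In the hypodermal libraries its share was 2.49%, 8.26% and 6.37%, above 0 in each.

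The gene families were described by the same labelling test. Cytosolic ribosomal proteins had 89 short entries tested, of which 0 passed, 82 lay above 0 (all entries: 70.6%) and the median was 0.21 (all entries: 0.52). At an unadjusted p under 0.05, 6 of the 89 were higher (all entries: 2.9%) and 0 lower (all entries: 0.451%). Cuticle collagens, which the hypodermis secretes, had 46 tested, 0 passed, 24 lay above 0 and the median was 0.03. The most-read collagen entry, col-117, had a T>C share of 1.46%, 1.24%, 0.777% and 1.00% in the controls and 1.27%, 1.10% and 1.09% in the hypodermal libraries, and the groups overlapped. dpy-5, a collagen needed for body shape, had 1.23%, 1.75%, 2.19% and 1.02% against 1.25%, 1.78% and 1.53%, also overlapping. Major sperm proteins had 24 tested, 0 passed and a median of 0.10.

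As a class, short collagen entries had a T>C share of 1.77% ± 0.31 in controls and 1.86% ± 0.017 in hypodermal libraries, and middle collagen entries 2.71% ± 0.69 and 2.75% ± 0.084. Short ribosomal protein entries had 3.16% ± 1.00 and 3.58% ± 0.18, and middle ones 2.78% ± 0.66 and 3.18% ± 0.11. Major sperm protein entries had 3.25% ± 1.37 and 2.92% ± 0.37, while other sperm genes had 1.22% ± 0.56 and 1.09% ± 0.21. Middle entries of other sperm genes had 1.60% ± 0.49 and 1.97% ± 0.92. Control replicate 2 was the highest control in each of the short classes. Without it the control means were 1.64% for short collagens, 2.66% for short ribosomal proteins, 2.57% for major sperm proteins and 0.955% for other sperm genes, each below the hypodermal mean. Leaving out the highest control lowers each control mean by construction. These class means were not tested.

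For total reads per entry, no strain difference passed in the main fit. That fit recovered 18% of 2-fold changes in simulated counts, so the lack of calls does not show equal levels. Of 16895 entries tested, 0 passed in either direction (0%) in edgeR's quasi-likelihood test after TMM scaling, and 0 of 2604 short entries. At an unadjusted p under 0.05, 25 short entries were higher (0.96%) and 65 lower (2.5%), against 0.645% and 1.52% of all entries. The median log2 difference was -0.04 over the short entries and -0.01 over all. TMM scales the entries to each other, so a log2 difference here can depart from the ratio of CPM over mapped reads: rps-3, at 4553 ± 501 and 4433 ± 196 CPM, had a log2 difference of -0.42 ± 0.32 (SE).

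DESeq2 called 8 short entries, 2 higher and 6 lower, against 0.0474% and 0.112% of all entries. nlp-27, of a cluster of antimicrobial peptide genes expressed in the epidermis, had 51.7, 36.8, 81.0 and 43.1 CPM in the controls and 8.88, 8.07 and 7.65 CPM in the hypodermal libraries. The groups did not overlap, and its log2 difference was -3.04 ± 0.38 (SE; adjusted p = 0.0646, edgeR; adjusted p = 9.6e-12, DESeq2). In edgeR it passed at an adjusted p of 0.0068 without the filter on low counts and 0.0467 with overlapping entries reduced to the most-read.

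The next 3 entries by DESeq2's adjusted p also had fewer reads in every hypodermal library than in every control. The 8-base entry of BE0003N10.6 had 7.19, 1.99, 6.28 and 5.75 CPM in the controls and 0.173, 0.325 and 0.280 CPM in the hypodermal libraries. T13F3.6 had 23.6, 36.0, 25.8 and 34.9 CPM against 7.21, 6.73 and 7.46 CPM. kin-15, a receptor tyrosine kinase gene of the hypodermis, had 4.99, 2.46, 7.53 and 1.98 CPM against 0.506, 0.455 and 0.560 CPM.

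None of the 3 passed in edgeR (adjusted p = 0.254, 0.389 and 1), and DESeq2 called all of them (adjusted p = 1.3e-09, 6.8e-05 and 0.00153). F43C11.2 went the other way, with 0.106, 0.0794, 0 and 0.03 CPM in the controls and 0.679, 4.16 and 4.10 CPM in the hypodermal libraries (adjusted p = 1, edgeR; adjusted p = 0.0055, DESeq2). The controls held 8, 1, 0 and 1 reads there, so its fitted log2 difference is not given as a size. The last 3 that DESeq2 called were Y110A2AL.6, which was higher (adjusted p = 0.0261), and ZK686.1 and F08F3.4, which were lower (adjusted p = 0.0367 and 0.0404).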

How the data were processed

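The authors' deposited counts per entry came from slamdunk 0.4.3 (named in the file headers): reads, T>C reads, covered Ts and converted Ts. The deposited conversion fraction was recomputed from these counts. The deposited CPM score served to back-calculate mapped reads. The submitters' processing notes name the build ce10 and DESeq2 but no role for either. Coordinates are 1-based on the WBcel235 annotation named in the headers. The authors' series table holds the p-value, its adjusted form, 2 mean conversion fractions and their ratio;  21 of its columns per library were not used.

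Entries were joined to genes by transcript name (42202 rows) or sequence name (4816 rows), and 21 rows had no gene. Labelling was tested on T>C and other reads with edgeR 4.0.16, with a term per library, over entries with a mean of 20 reads and 10 T>C reads in total. Total reads were tested with edgeR and DESeq2 1.42.0, all with Benjamini-Hochberg adjustment over the whole table at 0.05. Overlapping entries were each tested. Classes were pooled over distinct entries, so reads in overlaps count in each entry, except where stated. Tested on simulated data, the total-reads fit recovered 18% of 2-fold and 97% of 4-fold changes over 13196 entries with 6 false calls. The labelling fit recovered 91% of 4-fold changes over 10092 entries with 16 false calls. The simulation used a set spread and no outlying library such as control replicate 2, so these figures need not hold for the real libraries. Named entries are the 20 most read, those with the smallest p, those in the authors' table, the 3 most read of each gene list and those at the length limit. rpl-3, and the mitochondrial entries other than COX1, were named after their values were seen. The members and lists were chosen with earlier results of these data known. The labels do not say whether replicates were separate cultures, so p-values cover only sample-to-sample spread, which may be technical. Intervals and limits cover counting error only. Alternatives and their effects are given at the end. Python 3.11.15, SciPy 1.17.1, R 4.3.3 and limma 3.58.1 were also used.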

Additional observations from a re-analysis of the deposited data

Results flagged for a closer look

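In the 4 control libraries, 78 values were examined for a library far from the other 3, and 17 were found. For independent values chance gives about 1 in 20, but the classes examined share reads, so that rate need not hold here. An entry whose other 3 controls are equal is flagged however small the gap, as were C32E8.4, ncbp-2 and kin-15. Control replicate 2 was the high library in 13 of the 17.

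It had a T>C read share of 4.73% in short entries, 4.62% in middle entries, 4.36% in short entries without the mitochondrial ones, 19.2% in the mitochondrial entries and 4.65% in short ribosomal protein entries. Its conversion rate was 0.266% in short entries, 0.199% in middle entries, 0.235% in short entries without the mitochondrial ones and 0.252% in short ribosomal protein entries. The T>C read share of single entries in that library was 7.67% in rps-25, 2.66% in rps-3, 6.04% in rpl-21 and 1.32% in ncbp-2.

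Control replicate 1 was the high library for the T>C read share of rpl-7A (2.09%), C32E8.4 (0.0581%, from 1 read) and kin-15 (0.531%, from 2 reads). Control replicate 3 was the high library for the level of rps-3 (5295 CPM).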

How the results depend on the processing

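The difference in T>C read share between short and middle entries changed most: -0.155 points without mitochondrial entries, -0.171 in protein-coding entries, -0.430 for the median entry with 1000 or more covered Ts and -0.0537 with 10000 or more, against 0.234 with a limit of 50 bases, 0.222 without overlapping entries and 0.0851 against middle entries of 200 to 400 bases. The settings with 50 bases, without overlapping entries and with 200 to 400 bases kept the mitochondrial entries. The pooled conversion rate kept its direction except for the median entry with 1000 or more covered Ts (-0.0202 percentage points). With a named flow cell, the log2 ratio was 0.432 for the conversion rate and -0.761 for covered Ts, and without one 0.519 and -0.908; these subsets hold too few libraries to pass. The strain difference in short to middle odds became 0.00556 against middle entries of 200 to 400 bases. The settings without mitochondrial entries, with protein-coding entries and with the median entry were chosen after seeing the data. The cause of these changes was not tested.

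Leaving out each library in turn gave 0 to 12 short entries called for labelling, all 12 without control replicate 2. For total reads, 1 short entry was called without the filter, 1 with the most-read of overlapping entries and 8 by DESeq2. The other 137 alternatives on summary results kept their direction and side of the threshold. Same-numbered replicates correlated unevenly (0.610, 0.246 and -0.0711 in log2 CPM), and not every library correlated best with its own number, so the numbers were not taken as pairs. With the replicate block, 0 short entries were called for labelling and 0 for total reads, the strain difference in T>C read share of short entries was 0.211 points, and in conversion rate 0.00637 points. The mapped reads of the smallest library limit entries with few reads: 3 reads there equal 0.238 CPM.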

Other observations

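Short entries of 3 further families were counted, beside 3462 of 3998 autosomal protein-coding short entries with reads. The gene totals of these families count only genes with an entry, chromosome X included. F-box genes, which encode substrate receptors of ubiquitin ligases, had a short entry in 80 of 162 genes, and 46 of the 80 entries had reads. Chemoreceptors had one in 67 of 148 genes, and 34 of their 71 entries had reads. Nuclear hormone receptors had one in 81 of 203 genes, and 74 of their 89 entries had reads. For labelling, 13, 1 and 28 entries of these families were tested, and 0 passed by edgeR. At an unadjusted p under 0.05, 0, 0 and 1 were higher (all entries: 2.9%).

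nlp-27, with fewer reads in the hypodermal libraries, had a T>C read share of 0.920%, 9.07%, 0.0808% and 4.31% in the controls and 1.53%, 3.23% and 21.5% in the hypodermal libraries, the last from 246 reads. The strains overlapped.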
